A study of Rattus norvegicus with 18 samples.

Results

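Pck1, G6pc, Fbp1, Slc2a2, Pklr, Pkm, Hk2, Pfkfb1 and Gys2 encode enzymes and a transporter of glucose production, glycolysis and glycogen storage in the liver. They were taken by name from the 32623 genes in each rat's file, and all 9 were among the 12904 genes that passed the filter on low counts. Liver RNA was sequenced from male Wistar rats, 6 in the control group, 6 in the NASH group and 6 in the NASH-CH group, with 1 library per rat. Control rats received standard chow and plain water over 12 weeks. NASH rats inhaled CCl4, a hepatotoxin, and drank phenobarbital, which raises the enzymes that activate CCl4, during 6 weeks, and then ate a diet rich in fat and cholesterol (HFCD) during 4 weeks. NASH-CH rats, in which the study sought NASH with cirrhosis, had CCl4 and phenobarbital during 8 weeks and then the HFCD with CCl4 and phenobarbital during 16 weeks, 24 weeks in all. The NASH rats therefore no longer inhaled CCl4 while on the diet, whereas the NASH-CH rats did until the end. Treatment, duration and age differ together between the groups and cannot be told apart. Animals had free access to food, and the feeding state and hour at liver collection are not given in the sources used here.

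Between meals the liver builds glucose from lactate, amino acids and glycerol, a route that shares most enzymes with glycolysis but replaces the irreversible glycolytic steps with its own. After a meal, insulin and glucose turn the liver to storage, and glucose is phosphorylated, laid down as glycogen or passed through glycolysis to fat. Much of this switch is transcriptional. Glucagon, through cyclic AMP, raises genes of glucose production, insulin lowers them, and glucose itself raises the liver-type pyruvate kinase gene.

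Library totals ran from 19498534 to 27174015 expected counts in control, 20827770 to 29491947 in NASH and 44680344 to 60117822 in NASH-CH rats, so that depth also differed with the group. Levels are given below as CPM, counts brought to a common library total with TMM scaling, and they compare rats for 1 gene, not genes with each other, because gene length was not in the files. Of the 8 hepatocyte markers listed, such as Alb, all were detected, and their summed level ran from 125936 to 187534 CPM in control, 87077 to 146234 in NASH and 83463 to 137871 in NASH-CH rats. Apoa1 was called lower in NASH livers, and Alb, Ttr and Apoa1 in NASH-CH livers. A lower level in whole liver cannot be told apart from fewer cells of a type. Of the 9 members, control rat 6 had the lowest control level of 4 (G6pc, Pklr, Pfkfb1 and Slc2a2) and the highest of 4 others (Pck1, Fbp1, Hk2 and Gys2). NASH-CH rat 5 had the lowest level of its group for 6 members and the highest for Pkm and Hk2. For members and ratios, differences from control whose call changed without either rat are given with and without it. Other differences also shifted in size without these rats, and only some of these shifts are given.

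None of the 9 genes passed the test in any comparison, and the smallest unadjusted p-values belonged to Pklr, Pkm, Hk2 and Pck1. Against controls, the NASH rats had lower Pklr (0.315-fold) and slightly higher Pck1 (1.27-fold), and the NASH-CH rats had higher Pkm (1.39-fold) and Hk2 (1.69-fold), all short of the threshold. With limma-voom and Benjamini-Hochberg adjustment over all tested genes, 0 of 9 members had an adjusted p under 0.05 in NASH against control, where 3.12% of all tested genes did (1.58% higher and 1.54% lower). In that comparison 3 members had an unadjusted p under 0.05 (Pck1, Pklr and Gys2), beside 2776 of all 12904 tested genes. edgeR's quasi-likelihood test called 1 member (Pklr) and 652 of all 12904 genes. DESeq2 called 2 members (Pck1 and Pklr) and 1228 of all 12879 genes. In NASH-CH against control limma-voom called 0 of 9 members, against 17.0% of all tested genes (8.38% higher and 8.60% lower). There 2 members had an unadjusted p under 0.05 (Pkm and Hk2), beside 4085 of all 12904 tested genes. edgeR called 1 member (Pkm) and 2449 of all 12904 genes. DESeq2 called 2 members (Pkm and Hk2) and 2841 of all 12879 genes. In NASH-CH against NASH limma-voom again called 0 of 9, against 4.20% of all tested genes (1.81% higher and 2.39% lower). Here 2 members had an unadjusted p under 0.05 (Pck1 and Pkm), beside 2254 of all 12904 tested genes. edgeR called 0 members and 617 of all 12904 genes. DESeq2 called Pck1 and Pkm and 949 of all 12879 genes. The ranges of the groups overlapped for all 9 members in NASH against control and in NASH-CH against control, while 3.16% and 7.08% of all tested genes had groups that did not overlap. In NASH-CH against NASH 1 of 9 members did not overlap (Pck1), against 3.46% of all tested genes. The median log2 fold change of the 9 members was -0.14, -0.26 and 0.26 in these comparisons in turn, and that of all tested genes 0.0072, 0.0127 and 0.00684.

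**Figure D1:**
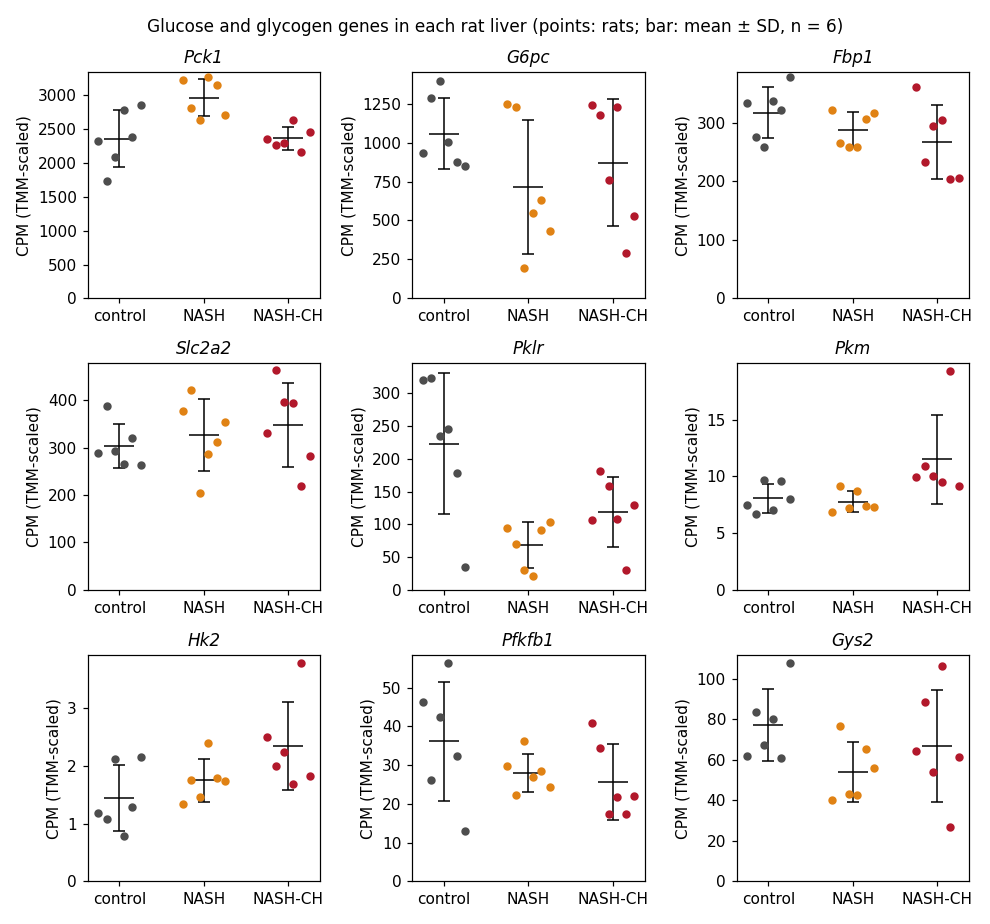
Level of each of the 9 genes (vertical axis, CPM after TMM scaling, from 0) in every rat liver, with 1 point per rat in the control, NASH and NASH-CH groups and a bar for the mean ± SD of 6 rats. The NASH rats' Pck1 levels lie above those of all NASH-CH rats, 5 of the 6 control rats have more Pklr than every NASH rat, and NASH-CH rat 5 is the single high point for Pkm at 19.3 CPM.

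Pck1 (ENSRNOG00000028616) encodes cytosolic phosphoenolpyruvate carboxykinase, which makes phosphoenolpyruvate from oxaloacetate and is controlled mainly through transcription. Its promoter is shown because a cyclic AMP response element lies in it at the place where glucagon's signal is known to act. The 250 bases before the start site in RefSeq, from chr3:182348322-182348571 on the forward strand of GRCr8, hold TTACGTCA at positions -93 to -86 from the start and CACGGG at -220 to -215, both in capitals.
Pck1 promoter: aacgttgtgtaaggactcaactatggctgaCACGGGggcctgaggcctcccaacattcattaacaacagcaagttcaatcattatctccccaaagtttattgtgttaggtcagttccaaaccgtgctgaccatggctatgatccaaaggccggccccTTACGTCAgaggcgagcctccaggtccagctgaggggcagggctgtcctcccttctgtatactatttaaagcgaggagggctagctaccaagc
Of 33469 RefSeq promoters searched over the same length on both strands, 0.75% hold TTACGTCA, and Pck1 alone among the 9 members does, while the palindromic form TGACGTCA is in 1.59% of promoters and in 0 of the 9. A match is a run of letters and not evidence of a bound site. Pck1 stood at 1726 CPM in the lowest control rat, 2352 at the control median and 2853 in the highest. The NASH rats spanned 2635 to 3265 CPM with a median of 2976, and the NASH-CH rats 2159 to 2629 with a median of 2324. Thus 3 NASH rats exceeded every control, all 6 exceeded the control median, and the NASH range lay wholly above the NASH-CH range, although the nearest pair stood at 2635 and 2629 CPM. NASH against control gave a log2 fold change of 0.35 ± 0.12 (SE, limma-voom, adjusted p = 0.111, 95% confidence interval 0.09 to 0.60). Between NASH-CH and control rats it was 0.02 ± 0.12 (limma-voom, adjusted p = 0.922, interval -0.24 to 0.28), and 0.08 and 0.04 without control rat 6 and without NASH-CH rat 5. NASH-CH against NASH gave -0.32 ± 0.13 (limma-voom, adjusted p = 0.169), and DESeq2 gave an adjusted p of 0.0433 for it. Its coefficient of variation was 17.9% among control rats, 9.42% among NASH rats and 6.97% among NASH-CH rats, the smallest of the 9 members in both disease groups.

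G6pc (ENSRNOG00000051171) encodes the catalytic subunit of glucose-6-phosphatase, the enzyme that releases free glucose from the hepatocyte. Its expected counts were fractional in 18 of 18 rats, which means that reads were shared with another locus, and its level is uncertain to that extent. Control rats had 847 to 1394 CPM (median 968). The NASH livers covered a wide range of 197 to 1247 CPM (median 590), a 6.33-fold spread against 1.64-fold in controls. NASH-CH livers were nearly as spread, from 291 to 1241 CPM (median 969). In both disease groups some rats matched the controls and others lay well under them, with 4 NASH and 3 NASH-CH rats below every control. The log2 fold change was -0.79 ± 0.40 in NASH against control (limma-voom, adjusted p = 0.263, interval -1.63 to 0.06). In NASH-CH against control it was -0.41 ± 0.42 (limma-voom, adjusted p = 0.533), and -0.14 ± 0.40 without NASH-CH rat 5 (limma-voom, adjusted p = 0.840).

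Fbp1 (ENSRNOG00000017597) encodes fructose-1,6-bisphosphatase, which bypasses phosphofructokinase on the way to glucose. Its levels were close together, at 258 to 378 CPM (median 328) in control, 258 to 321 (median 286) in NASH and 204 to 361 (median 263) in NASH-CH rats. All 6 NASH rats lay under the control median, yet the ranges overlapped almost fully. Its log2 fold change was -0.14 ± 0.14 in NASH and -0.27 ± 0.14 in NASH-CH rats against control (limma-voom, adjusted p = 0.606 and 0.205), and the first of these changed sign to 0.09 when libraries were scaled by their totals alone and was -0.085 without control rat 6.

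Slc2a2 (ENSRNOG00000011875) encodes GLUT2, the transporter through which glucose enters and leaves hepatocytes. Control livers held 263 to 388 CPM (median 291), NASH livers 205 to 421 (median 333) and NASH-CH livers 220 to 465 (median 363). These ranges overlapped, with 1 NASH rat above and 1 below every control, and 3 NASH-CH rats above and 1 below. The log2 fold changes against control were 0.09 ± 0.18 in NASH and 0.18 ± 0.18 in NASH-CH rats (limma-voom, adjusted p = 0.823 and 0.525). The first was 0.05 without control rat 6, and the second 0.30 without NASH-CH rat 5 (limma-voom, adjusted p = 0.903 and 0.249).

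Pklr (ENSRNOG00000020420) encodes the liver-type pyruvate kinase, which carries out the last step of glycolysis and whose gene is raised by glucose and insulin. Its promoter is shown because it holds the paired half-sites of its carbohydrate response element, the sequence through which glucose is known to act on this gene. The 250 bases before the RefSeq start site, from chr2:176841014-176841263 on the forward strand of GRCr8, contain CACGGG at positions -168 to -163, the same letters on the other strand at -157 to -152, and TATAAA at -29 to -24, all in capitals.
Pklr promoter: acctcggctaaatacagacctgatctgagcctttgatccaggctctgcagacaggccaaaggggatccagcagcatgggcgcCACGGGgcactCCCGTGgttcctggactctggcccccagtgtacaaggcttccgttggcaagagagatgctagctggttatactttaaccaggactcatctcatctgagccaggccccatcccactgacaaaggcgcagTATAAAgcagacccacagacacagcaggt
The 2 half-sites face each other with 5 bases between them. CACGGG by itself is in 8.05% of the 33469 promoters and in 3 of the 9 members (Pklr, Pck1 and Hk2), whereas the facing pair at this spacing is in 1 promoter, that of Pklr. The letters and spacing searched for the pair are those of Pklr itself, so its match was fixed in advance and the count covers exact copies only. The search for CACGGG was added after the values had been seen. TATAAA is in 12.9% of promoters and, among the 9 members, in Pklr and G6pc. The E-box CACGTG (5.59% of promoters) and the forkhead letters TGTTTAC (3.21%) matched in 0 of the 9 windows.

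Pklr had the largest difference of the 9 genes in NASH livers. In controls the lowest rat, control rat 6, had 34.9 CPM, the other 5 had between 179 and 323, and the median was 239. NASH rats ranged from 21.8 to 104 CPM with a median of 80.8, and NASH-CH rats from 29.6 to 182 with a median of 118. Apart from control rat 6, every control had more Pklr than every NASH rat, and all 6 rats of each disease group were under the control median. The log2 fold change of NASH against control was -1.67 ± 0.52 (limma-voom, adjusted p = 0.0820, interval -2.76 to -0.57). It passed by edgeR (adjusted p = 0.0491) and by DESeq2 (adjusted p = 0.0154). Without control rat 6 it was -2.12 ± 0.45 (limma-voom, adjusted p = 0.0107), a call that rests on leaving out this rat, while leaving out any other rat gave an adjusted p of up to 0.176. NASH-CH against control gave -0.81 ± 0.56 (limma-voom, adjusted p = 0.336, interval -1.99 to 0.36). It became -1.27 ± 0.48 without control rat 6 (limma-voom, adjusted p = 0.0736) and -0.47 ± 0.53 without NASH-CH rat 5 (limma-voom, adjusted p = 0.579). NASH-CH against NASH gave 0.85 ± 0.53 (limma-voom, adjusted p = 0.432). Counts were fractional in 18 of 18 rats for Pklr as well.

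Genes that rise in liver after feeding were followed beside Pklr, with no test of a link to it. The 10 listed, among them Srebf1, Fasn, Acaca, Acly, Scd and Thrsp, were all detected. Their summed level was 923 CPM in control rat 6 and 5035 to 9321 in the other controls. It was 490 to 2373 CPM in NASH and 902 to 3350 in NASH-CH rats, so that every disease liver lay below every control other than rat 6. In NASH against control 4 of the 10 were called lower (Me1, Scd, Acly and Acaca) and 0 higher, and in NASH-CH against control 2 were called lower (Me1 and Elovl6) and 0 higher. Of all tested genes 1.54% and 8.60% were called lower in these comparisons. The 10 genes listed as raised by fasting, of which 9 were tested, summed to 5402 CPM in control rat 6, the highest control, and to 2052 to 4066 in the other controls. They ran from 2986 to 4808 CPM in NASH and from 2432 to 4874 in NASH-CH rats, and 0 of the 9 tested were called in NASH against control by limma-voom. In NASH-CH against control 1 was called higher (Sds) and 2 lower (Angptl4 and Fgf21). The part of feeding state in the Pklr values was not tested.

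**Figure D2:**
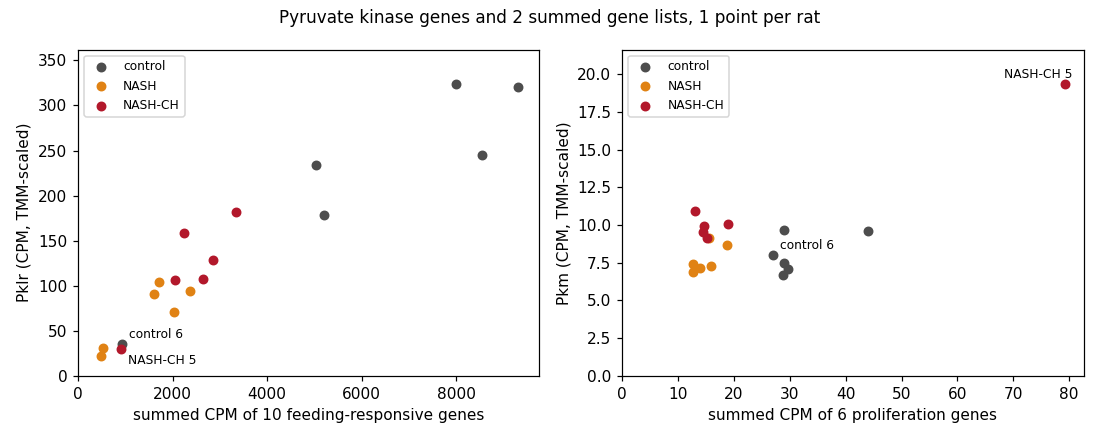
Left, Pklr (CPM) against the summed CPM of the 10 genes raised by feeding. Right, Pkm (CPM) against the summed CPM of 6 proliferation genes, with 1 point per rat in both panels. Control rat 6, at 34.9 CPM of Pklr and 923 CPM of the feeding genes, lies among the NASH rats on the left, and NASH-CH rat 5, at 79.2 CPM of the proliferation genes and 19.3 CPM of Pkm, lies alone on the right.

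Pkm (ENSRNOG00000011329) encodes the pyruvate kinase of muscle and of most cells other than hepatocytes, whose M2 form is found in proliferating and immune cells. The files hold 1 gene total, so its splice forms were not separated, and fractional counts in 18 of 18 rats again showed shared reads. Pkm stood at 6.67 to 9.64 CPM (median 7.74) in control and 6.86 to 9.17 (median 7.35) in NASH rats, 2 ranges that lay almost on each other. NASH-CH rats had 9.15 to 10.9 CPM except NASH-CH rat 5, which had 19.3, and the median was 9.98. All 6 NASH-CH rats were above the control median and 4 were above every control. Its log2 fold change in NASH against control was -0.05 ± 0.18 (limma-voom, adjusted p = 0.910), and its sign turned to 0.17 with libraries scaled by their totals alone. For NASH-CH against control it was 0.48 ± 0.16 (limma-voom, adjusted p = 0.0540, interval 0.13 to 0.82) and for NASH-CH against NASH 0.52 ± 0.16 (limma-voom, adjusted p = 0.0788, interval 0.18 to 0.86). Without NASH-CH rat 5 the difference from control was smaller, 0.31 ± 0.10, and passed the threshold (limma-voom, adjusted p = 0.0488). Leaving out NASH-CH rat 4 or 6 also brought it past the threshold (limma-voom, adjusted p = 0.0475 and 0.0466), and without control rat 4 the adjusted p was 0.125.

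Hk2 (ENSRNOG00000006116) encodes hexokinase 2, the high-affinity glucose kinase of muscle and fat that adult hepatocytes barely express. It was the scarcest member, with 19 to 290 counts per rat. Controls had 0.785 to 2.15 CPM (median 1.24), NASH rats 1.34 to 2.39 (median 1.75) and NASH-CH rats 1.68 to 3.77 (median 2.12). All 6 rats of each disease group exceeded the control median, while 1 NASH and 3 NASH-CH rats exceeded every control. The log2 fold change was 0.34 ± 0.29 in NASH against control (limma-voom, adjusted p = 0.540) and 0.75 ± 0.26 in NASH-CH against control (limma-voom, adjusted p = 0.0532, interval 0.21 to 1.30). The latter reached an adjusted p of 0.0294 without control rat 6, 0.0362 without NASH-CH rat 4 and 0.0495 without NASH-CH rat 6 (limma-voom). Without NASH-CH rat 5, the highest, it was 0.57 ± 0.21 (limma-voom, adjusted p = 0.0765), and the adjusted p rose to 0.160 without control rat 4.

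Markers of cells other than hepatocytes moved in the NASH-CH livers as well, where 8.38% of all tested genes were called higher and 8.60% lower than in control. The 10 macrophage markers summed to 260 to 449 CPM in control, 213 to 315 in NASH and 223 to 325 in NASH-CH rats, with 2 called higher (Gpnmb and Trem2) and 5 lower (Cd163, Clec4f, Csf1r, Vsig4 and Marco) in NASH-CH against control. The 10 stellate cell and myofibroblast markers, 9 of them in the files, summed to 278 to 370, 226 to 304 and 279 to 428 CPM, with Col1a1, Tagln and Des called higher and Lrat lower in NASH-CH against control. The 8 cholangiocyte markers, 6 of them tested, reached 63.9 CPM in NASH-CH rat 5, and 7.93 to 19.6 in the other NASH-CH rats. NASH-CH rat 5 also had 79.2 CPM of the 6 proliferation genes, where its group otherwise had 12.9 to 18.9 and controls 26.9 to 44.1. Of the 7 skeletal muscle markers 5 were in the files, they summed to at most 1.23 CPM in any rat, and Mb was at 0 in every rat. The part of these cell types in Pkm and Hk2 was not tested.

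Pfkfb1 (ENSRNOG00000000165) encodes the liver form of the bifunctional enzyme that makes and breaks down fructose-2,6-bisphosphate, the signal that sets glycolysis against glucose production. Controls were spread from 13.1 CPM, in control rat 6, to 56.3 (median 37.4). NASH rats lay between 22.2 and 36.3 CPM (median 27.8) and NASH-CH rats between 17.3 and 40.8 (median 22.0). Every NASH rat and 5 of 6 NASH-CH rats were under the control median, and none was under control rat 6. The log2 fold change was -0.24 ± 0.29 in NASH and -0.42 ± 0.29 in NASH-CH against control (limma-voom, adjusted p = 0.672 and 0.336). Without control rat 6 the former was -0.50 ± 0.23 (limma-voom, adjusted p = 0.177) and the latter -0.69 ± 0.23 and passed (limma-voom, adjusted p = 0.0458).

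Gys2 (ENSRNOG00000059753) encodes the liver glycogen synthase. Its control levels were 60.9 to 108 CPM (median 73.7), the NASH levels 39.9 to 76.6 (median 49.6) and the NASH-CH levels 26.6 to 106 (median 62.9). In the NASH group 4 rats lay below every control and 5 were under the control median, and NASH-CH rat 5 had the lowest value of all. It had a log2 fold change of -0.52 ± 0.24 in NASH against control (limma-voom, adjusted p = 0.227, interval -1.03 to -0.01) and -0.26 ± 0.26 in NASH-CH against control (limma-voom, adjusted p = 0.510). The latter was -0.046 ± 0.21 without NASH-CH rat 5 (limma-voom, adjusted p = 0.906) and -0.16 ± 0.26 without control rat 6 (limma-voom, adjusted p = 0.694).

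**Figure D3:**
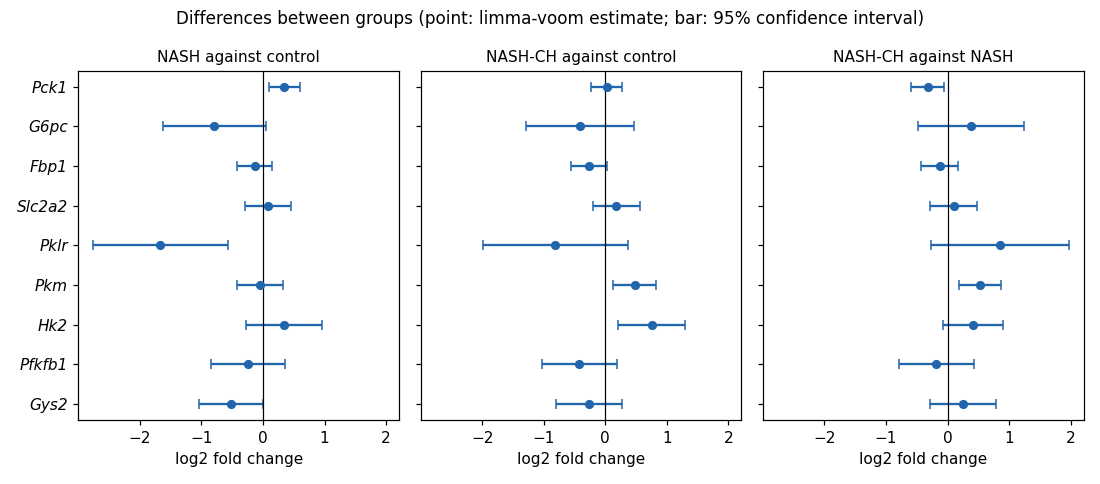
Log2 fold change (horizontal axis) of each of the 9 genes in the 3 comparisons, with points for the limma-voom estimate and bars for its 95% confidence interval. The Pklr intervals are the widest, reaching from -2.76 to -0.57 in NASH against control, and the Pck1 interval of 0.09 to 0.60 in NASH against control is among the narrowest.

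Ratios of 2 genes within a library do not depend on how libraries are scaled. Across the groups 2 were compared with a two-sided exact permutation test over rats, adjusted over 9 ratio tests. Its smallest p is 0.00216 for 6 against 6 rats and the same with a rat left out. The Pkm to Pklr ratio sets the general against the liver-type pyruvate kinase. On the log2 scale of expected counts it ran from -5.59 to -2.12 in control, with control rat 6 the highest, from -3.83 to -1.33 in NASH and from -4.05 to -0.62 in NASH-CH rats. All disease livers lay above the control mean of -4.51. NASH rats exceeded controls by a mean difference of 1.58 (p = 0.0433 by exact permutation, adjusted p = 0.14). For NASH-CH rats this difference was 1.28 (p = 0.117 by exact permutation, adjusted p = 0.176). Without control rat 6 the NASH difference was 2.06 (adjusted p = 0.00974) and that of NASH-CH rats 1.76 (adjusted p = 0.0130), both by exact permutation. These calls rest on leaving out the rat with the highest control ratio. Without NASH-CH rat 5 the NASH-CH difference was 0.76 (exact permutation, adjusted p = 0.295).

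The Pck1 to Pklr ratio sets a step of glucose production against the last step of glycolysis. It ran from 2.42 to 6.35 in control, again with rat 6 the highest and the others at most 3.73, from 4.70 to 7.22 in NASH and from 3.64 to 6.19 in NASH-CH rats. The NASH difference from control was 1.98 (exact permutation p = 0.0216, adjusted p = 0.14), and 2.51 without control rat 6 (exact permutation, adjusted p = 0.00974). In NASH-CH rats it was 0.83 (exact permutation p = 0.258, adjusted p = 0.332), 1.37 without control rat 6 (exact permutation, adjusted p = 0.0244) and 0.50 without NASH-CH rat 5 (exact permutation, adjusted p = 0.556). Between the disease groups the ratio was lower in NASH-CH by a difference of -1.14 (exact permutation p = 0.0693, adjusted p = 0.14), which became -1.48 without NASH-CH rat 5 (exact permutation, adjusted p = 0.0390). None of these ratio tests passed after adjustment with all rats in, and 2 had an unadjusted p under 0.05. The passes without control rat 6 or NASH-CH rat 5 rest on leaving out the highest rat of its group.

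**Figure D4:**
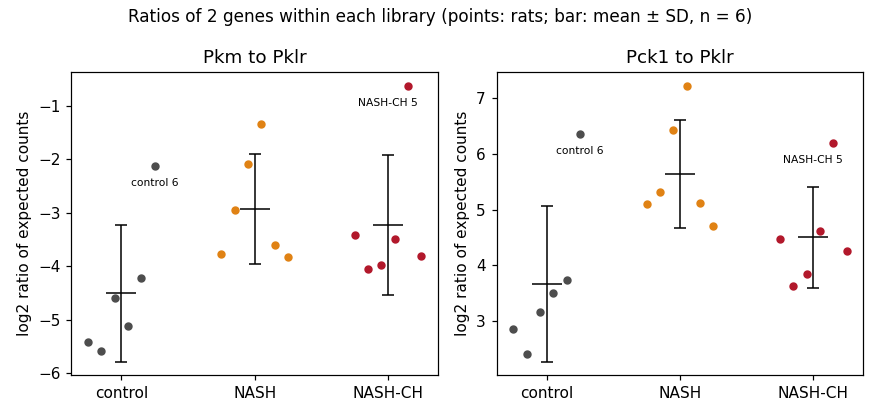
Log2 ratio of expected counts of Pkm to Pklr and of Pck1 to Pklr within each library (vertical axes), with 1 point per rat and a bar for the mean ± SD of 6 rats in each group. Control rat 6 lies above the other controls in both panels, at 6.35 for Pck1 to Pklr where the others reach 3.73 at most, and NASH-CH rat 5 is highest of its group for Pkm to Pklr at -0.62.

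Some members went up and down together from rat to rat. After subtraction of each group's mean, the log2 CPM of G6pc and Slc2a2 correlated across the 18 rats with Pearson r = 0.829 (Spearman rho 0.74, and r = 0.623 without the 2 rats farthest from the G6pc median). Pkm and Hk2 had r = 0.708 (rho 0.781, 0.526 without the 2 farthest). Pklr and Hk2 went in opposite directions, with r = -0.634 (rho -0.465), and less so without the 2 farthest rats (-0.312). Among the 36 pairs of members, 6 had r over 0.5, 3 had r under -0.5 and 27 lay between. Pck1 and G6pc, both genes of glucose production, had r = 0.128. These are descriptions over rats of 3 groups, and the genes of 1 rat share its library and scaling.

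The genes with the most similar pattern to each member were sought in the same way among all tested genes. Each was picked for its high r among many genes, without a test. By Pearson r over all rats Pklr had the closest partners, though not by rho or with the 2 farthest rats left out. Among them were Tkfc, encoding triokinase of fructose metabolism (r = 0.944, rho 0.738, 0.86 without the 2 farthest rats) and Acaca, encoding the acetyl-CoA carboxylase of fatty acid synthesis (r = 0.938, rho 0.874, 0.839). Acaca fell in NASH livers, from 48.2 to 184 CPM in control to 37.5 to 76.6 in NASH rats (log2 fold change -1.09, limma-voom, adjusted p = 0.0408). Tkfc had a log2 fold change of -1.14 (limma-voom, adjusted p = 0.0856).

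Pkm was closest to Lyz2, which encodes the lysozyme of macrophages and other myeloid cells (r = 0.929, rho 0.886, 0.827 without the 2 farthest). Lyz2 rose in NASH-CH livers to 22.8 to 88.2 CPM, above the 7.89 to 16.1 of controls (log2 fold change 1.58, limma-voom, adjusted p = 0.000659). Eif1ax (r = 0.915, rho 0.773, 0.799 without the 2 farthest) and Map2 (r = 0.879, rho 0.657, 0.642) followed. For Hk2 the nearest were Tmem184c (r = 0.834), Vcan (r = 0.819) and Gpr171 (r = 0.816), and without the 2 farthest rats 0.757, 0.744 and 0.676. Vcan, which encodes the matrix proteoglycan versican, rose from 0.289 to 0.789 CPM in control to 1.24 to 2.78 in NASH-CH rats (log2 fold change 1.80, limma-voom, adjusted p = 0.000720).

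G6pc and Slc2a2 shared Sgtb, which encodes a co-chaperone, as their nearest gene (r = 0.9 and 0.874). G6pc was next closest to Slc25a51, the mitochondrial NAD carrier (r = 0.868), and Bcl6b (r = 0.841), and Slc2a2 to Il4r (r = 0.857) and Tmem150a (r = 0.843). Fbp1 was nearest to Hal, encoding histidine ammonia-lyase, a periportal enzyme of amino acid breakdown (r = 0.914), then Suclg2 (r = 0.895) and Serpina6 (r = 0.88). Gys2 was nearest to Naa60 (r = 0.922), Slc16a12 (r = 0.915) and Ung (r = 0.905). Pfkfb1 had Dnhd1 (r = 0.852), Vdac1 (r = 0.818) and Lrrc40 (r = 0.813), and without the 2 farthest rats 0.845, 0.639 and 0.653. Pck1 had the weakest partners by r over all rats, with Carm1 (r = 0.76), Nek3 (r = 0.732) and Slc7a10 (r = 0.73). Without the 2 farthest rats these were 0.726, 0.645 and 0.68.

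The rest of carbohydrate metabolism was followed in 128 other listed genes, of which 118 rows were tested, with 1 gene in 2 rows. In NASH against control 6 of the 118 (5.1%) passed, 2 higher and 4 lower, against 3.12% of all tested genes. In NASH-CH against control 15 (12.7%) passed, 5 higher and 10 lower, against 17.0% of all, and in NASH-CH against NASH 6 (5.1%), 2 higher and 4 lower, against 4.20%. The median log2 fold change of the 118 was -0.02, -0.00032 and 0.01 in turn. Scaling by library totals alone raised the median of all tested genes to 0.229 in the NASH comparison and 0.268 in that of NASH-CH with control, and it turned the split of the calls to 12 higher and 3 lower in NASH and 22 higher and 2 lower in NASH-CH against control. Without control rat 6 the counts were 23 (7 higher and 16 lower) and 28 (8 higher and 20 lower). In NASH against control the count dropped to 2 or 3 without control rat 1, 3, 4 or 5 or NASH rat 3 or 5, and was 11 without control rat 2 and 10 without NASH-CH rat 5. For NASH-CH against control it was 7 without control rat 1 and 9 without NASH-CH rat 6, and without NASH-CH rat 5 it was 15 with 9 higher and 6 lower.

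Glucose production had 15 tested genes besides the members. Slc16a7, encoding the MCT2 transporter of lactate and pyruvate, rose in NASH livers, from 19.8 to 36.7 CPM in control to 36.7 to 48.4 in NASH rats (log2 fold change 0.79 ± 0.15, limma-voom, adjusted p = 0.0104), and in NASH-CH livers (0.49 ± 0.15, adjusted p = 0.0303). The call in NASH-CH was lost without control rat 1, 3 or 4 or NASH-CH rat 2, 4 or 6 (adjusted p up to 0.0783) and with the 2 groups fitted alone (0.0708). Pck2, the mitochondrial counterpart of Pck1, fell from 4.85 to 6.17 CPM in control to 2.31 to 4.41 in NASH and 3.30 to 4.92 in NASH-CH rats. Its log2 fold change was -0.71 ± 0.14 in NASH (limma-voom, adjusted p = 0.0133) and -0.45 ± 0.13 in NASH-CH rats (limma-voom, adjusted p = 0.0197). Both calls held in all 18 fits that left out 1 rat, and the second was lost with libraries scaled by their totals alone. Gk, encoding the glycerol kinase that brings glycerol into the route, fell in NASH-CH against control (-0.66 ± 0.19, limma-voom, adjusted p = 0.0243), a call that scaling by totals alone also removed (0.133). In all, 2 of the 15 (13.3%) passed in NASH (1 higher and 1 lower), against 3.12% of all tested genes. In NASH-CH against control 6 (40.0%) passed (2 higher and 4 lower), against 17.0% of all.

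Of the 22 other glycolysis genes tested, 17 had a negative log2 fold change when NASH was compared with control, with a median of -0.30. Against 3.12% of all tested genes, 1 (4.5%) was called, Tpi1, encoding triosephosphate isomerase. It fell from 122 to 178 CPM in control to 94.3 to 126 in NASH rats (log2 fold change -0.51 ± 0.11, limma-voom, adjusted p = 0.0246). Against control, 2 (9.1%) passed in NASH-CH rats, both lower, where 17.0% of all tested genes passed. Slc16a1, encoding the lactate transporter MCT1, had -0.65 ± 0.15 (limma-voom, adjusted p = 0.00692) and Ldha, encoding the lactate dehydrogenase subunit of glycolytic tissue, -0.67 ± 0.19 (limma-voom, adjusted p = 0.0234). The Tpi1 call was lost without control rat 1, 3, 4 or 5 or NASH rat 3, 4 or 5 (adjusted p up to 0.0703), and the Ldha call without control rat 1 or NASH-CH rat 6 (up to 0.0546) and with the 2 groups fitted alone (0.0548). Scaling by library totals alone removed the calls of Tpi1, Slc16a1 and Ldha (limma-voom, adjusted p = 0.0758, 0.0738 and 0.0514).

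Glucose uptake and phosphorylation had 12 tested genes. By limma-voom 0 of them passed in NASH against control, where 4 had an unadjusted p under 0.05, beside 2776 of all 12904 tested genes. Against 17.0% of all tested genes, 1 of the 12 (8.3%) passed in NASH-CH against control. This was Gckr, which encodes a regulatory protein of hepatocyte sugar metabolism (-0.76 ± 0.22, limma-voom, adjusted p = 0.0259, lost without control rat 1, 3 or 4 or NASH-CH rat 4, 5 or 6, up to 0.0584, and with scaling by totals alone, 0.0569). Among 24 glycogen genes, limma-voom called 0 in NASH livers, where 3 had an unadjusted p under 0.05, beside the same 2776 of all genes. It called 2 (8.3%) when NASH-CH rats were compared with control, again against 17.0% of all tested genes. Gbe1, the glycogen branching enzyme, fell (-0.85 ± 0.27, limma-voom, adjusted p = 0.0376) and Gsk3a, a kinase that inhibits glycogen synthase, rose (0.38 ± 0.10, limma-voom, adjusted p = 0.0140). The Gbe1 call was lost without control rat 1, 3, 4 or 5 or NASH-CH rat 5 or 6 (adjusted p up to 0.0886), with scaling by totals alone (0.0554) and with the 2 groups fitted alone (0.0860), and that of Gsk3a held in all 18 fits that left out 1 rat.

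The pentose phosphate pathway, which branches from glycolysis and makes NADPH, had 8 tested genes, and 6 of them lay below 0 in NASH and 7 in NASH-CH against control. In each of these comparisons 1 of the 8 (12.5%) was called, lower, against 3.12% and 17.0% of all tested genes in turn. Pgls, encoding the lactonase of the pathway, had the smallest adjusted p of the carbohydrate genes. It fell from 13.7 to 22.1 CPM in control to 5.84 to 9.21 in NASH-CH rats, 2 ranges that did not overlap (-1.19 ± 0.14, limma-voom, adjusted p = 1.54e-05), and it fell in NASH-CH against NASH too (-0.70 ± 0.14, limma-voom, adjusted p = 0.00685).

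Against 3.12% of all tested genes, 2 of 9 fructose and galactose genes (22.2%) passed in NASH against control, 1 higher and 1 lower. Of the 9, 6 had a negative log2 fold change there. In NASH-CH against control 0 of the 9 passed, against 17.0% of all tested genes. The gene called higher in NASH was Galm, encoding galactose mutarotase. It rose from 33.6 to 43.1 CPM in control to 48.5 to 57.1 in NASH rats, without overlap (0.42 ± 0.09, limma-voom, adjusted p = 0.0216). The call was lost without control rat 1, 3 or 4 or NASH rat 3 or 5 (adjusted p up to 0.0561). For NASH-CH against control the log2 fold change of Galm was 0.04 ± 0.10 (limma-voom, adjusted p = 0.824).

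Among the regulators, 28 rows of 27 genes were tested, 20 of them above 0 in NASH against control. There limma-voom called 0, and 11 had an unadjusted p under 0.05, beside 2776 of all 12904 tested genes. Against 17.0% of all tested genes, 3 of the 28 (10.7%) passed in NASH-CH rats compared with control. Sik2, a kinase that restrains the coactivators of cyclic AMP-driven transcription, rose from a median of 5.85 CPM in control to 14.1 in NASH-CH rats, without overlap (1.06 ± 0.23, limma-voom, adjusted p = 0.00416). Cebpb, a transcription factor that acts on the Pck1 promoter, fell from 42.1 to 73.3 CPM in control to 16.2 to 37.5 in NASH-CH rats, also without overlap (-0.89 ± 0.20, limma-voom, adjusted p = 0.00575). Irs2, an adaptor of the insulin receptor whose gene insulin lowers, rose (1.18 ± 0.38, limma-voom, adjusted p = 0.0377), a call lost by edgeR, with the 2 groups fitted alone and without control rat 1, 3 or 5 or NASH-CH rat 1, 2, 3, 4 or 6 (adjusted p up to 0.0870). Irs2 ran from 13.8 to 65.8 CPM in control and from 51.5 to 82.2 in NASH-CH rats.

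**Figure D5:**
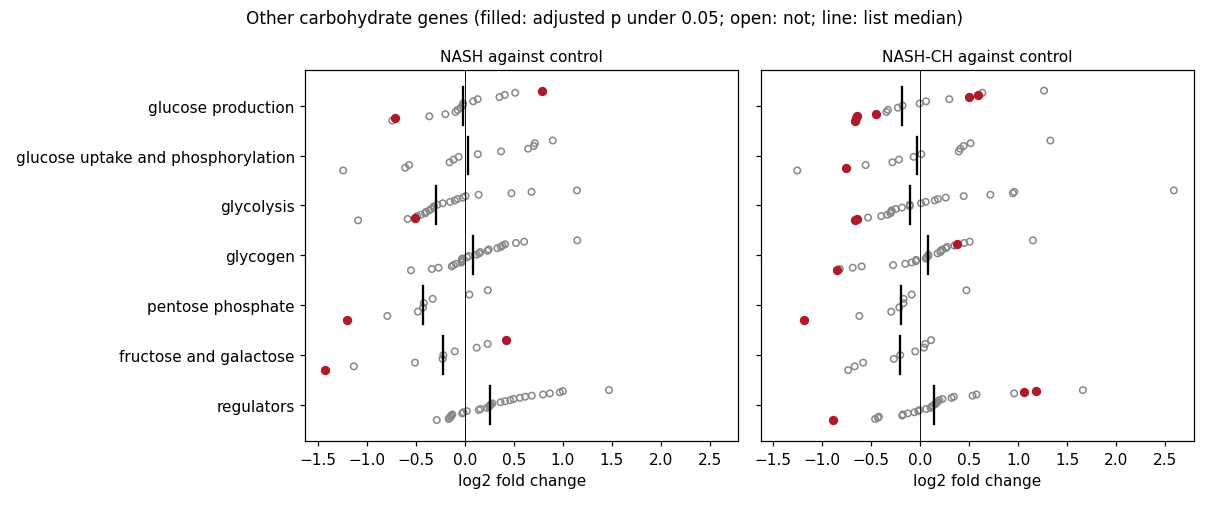
Log2 fold change (horizontal axis) of the 118 tested rows of other carbohydrate genes by list, in NASH and in NASH-CH against control, with filled points for an adjusted p under 0.05, open points for the rest and a line at each list's median. Calls are few, 6 and 15, and lie on both sides of 0, and the glycolysis median in NASH is -0.30.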

How the data were processed

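Liver RNA libraries of 18 rats were made with a stranded mRNA kit (the labels name the RNAqueous-Micro kit for extraction and the methods the miRNeasy kit). The authors trimmed adapters, aligned reads to Rnor_6.0 with STAR and deposited RSEM expected counts per gene (Ensembl release 95), not normalized. Tool versions are not given in the sources used here, nor is the use of strand in counting, so reads of overlapping or antisense genes may not be told apart. Gene symbols were taken from the files.

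Expected counts were rounded, scaled by TMM (edgeR 4.0.16) and tested with limma-voom (limma 3.58.1, R 4.3.3) in 1 fit of all 18 rats with a mean per group. edgeR's filterByExpr left 12904 of 32623 genes, and p-values were adjusted by Benjamini-Hochberg over these, with a threshold of 0.05. Ratios had 0.5 added to each count and were tested by exact permutation. The p-values rest on the spread between 6 rats per group, and the total counts of 19498534 to 60117822 give counting error only. Every pair of rats of 1 group differed by far more than counting error (chi-square per degree of freedom at least 28.5). Scripts were tested on simulated data.

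The members, the gene lists and the tests were chosen with earlier results of these data known. Named were all 9 members, up to 3 genes per list with the smallest adjusted p past the threshold in NASH-CH against control, every list gene past it in NASH against control, and the 3 genes most correlated with each member. Some genes that this rule names, and a ratio that uses one, are not reported here, but the counts and the adjustment over 9 ratio tests include them. Of the 128 other carbohydrate genes listed, 125 symbols were found, in 126 rows. Promoters came from RefSeq (GRCr8, another build than that of the counts), where 8 members were matched by symbol and G6pc by a synonym.

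Alternatives were DESeq2 1.42.0, the quasi-likelihood test of edgeR, limma-voom with DESeq2 size factors, with unscaled library totals, without a filter or with at least 10 counts in every rat, the 2 groups fitted alone, sample quality weights, NASH-CH counts thinned to the control median, a replicate block, leaving out each rat, and 0 or 5 added in ratios. Serum, histology and protein measurements were not analysed here.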

Additional observations from a re-analysis of the deposited data

Results flagged for a closer look

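In each group of 6 rats the gap between the most extreme rat and its neighbour was set against the whole range (Dixon's criterion at the 95% level). Of 33 groups examined, 9 genes and 2 ratios in 3 groups, 3 exceeded it, and chance flags about 1 in 20 groups. Pkm was 19.3 CPM in NASH-CH rat 5, where the other 5 had 9.15 to 10.9, a gap of 0.823 of the range. The log2 ratio of Pkm to Pklr was -0.62 in the same rat and -4.05 to -3.42 in the others (0.816 of the range). This liver also had the lowest hepatocyte marker sum of its group (83463 CPM), the highest cholangiocyte sum (63.9 CPM) and the highest proliferation sum (79.2 CPM). The log2 ratio of Pck1 to Pklr was 6.35 in control rat 6 and 2.42 to 3.73 in the other controls (0.666 of the range), and this rat had the lowest sum of feeding-responsive genes among controls (923 CPM) and the highest of fasting-responsive genes (5402 CPM). The part of tissue makeup and of feeding in these values was not tested.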

How the results depend on the processing

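The number of members called, 0 in each comparison, moved as follows. In NASH against control it was 1 by edgeR, 2 by DESeq2, 1 with library size only and 2 with sample quality weights. All genes called there moved as well, from 403 to 652, 1228, 865 and 1509 in turn. In NASH-CH against control the members called were 1 by edgeR, 2 by DESeq2, 2 with library size only and 2 without a filter. They were 1 with at least 10 counts in every rat, 2 with quality weights and 1 with thinned counts. All genes called there went from 2192 to 2449, 2841, 3270, 5495, 1920, 2410 and 2211 in turn. No filter left 20887 genes to test and the minimum of 10 counts 11033. In NASH-CH against NASH the members called were 2 by DESeq2, 1 without a filter and 1 with quality weights, where all genes called went from 542 to 949, 2649 and 774. Leaving out 1 rat gave 0 to 1, 0 to 2 and 0 to 0. The other carbohydrate genes called, 6, 15 and 6, became 11 by edgeR, 18 by DESeq2, 15 with library size only and 25 with quality weights in NASH against control. They became 26 by DESeq2, 24 with library size only and 8 with the 2 groups fitted alone in NASH-CH against control. In NASH-CH against NASH they became 2 with library size only and 2 with the 2 groups alone. All genes called with the 2 groups alone were 1408 and 349 in these 2 comparisons, and 367 with library size only in the second. Leaving out 1 rat gave 2 to 23, 7 to 28 and 2 to 6 of the other carbohydrate genes. Of all genes it gave 128 to 982, 1519 to 2409 and 346 to 591. Scaling by library size raised the median of all genes, which moves calls toward higher. The other causes were not tested.

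Signs turned for small differences. With library size only, Fbp1 became 0.0903 and Pkm 0.17 in NASH against control, and by DESeq2 Pck1 became -0.0048 in NASH-CH against control. Leaving out 1 rat took Pkm in NASH against control from -0.10 to 0.0041, Pck1 in NASH-CH against control from -0.0625 to 0.0772, and Slc2a2 in NASH-CH against NASH from -0.0314 to 0.20. For ratios, leaving out 1 rat gave 1.26 to 2.06 (Pkm to Pklr) and 1.66 to 2.51 (Pck1 to Pklr) in NASH against control, and 0.76 to 1.76 and 0.50 to 1.37 in NASH-CH against control. In NASH-CH against NASH it gave -0.82 to 0.0199 (Pkm to Pklr) and -1.48 to -0.83 (Pck1 to Pklr). The 0 or 5 added to counts changed no ratio call.

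Rats share the numbers 1 to 6 across groups. The deviations of same-numbered rats had a mean correlation of 0.0539, 0.0669 and 0.0101 (over 0.1 in 2, 1 and 0 of 6 pairs). Rats with different numbers had -0.0108, -0.0133 and -0.00189. The values were low but higher for same numbers, and whether the numbers mark shared handling was not tested. With a replicate block 0 members were called in each comparison, as without, and 8, 14 and 5 of the other carbohydrate genes (among named calls, that of Gbe1 in NASH-CH against control had an adjusted p of 0.0599), and the paired exact sign-flip test gave the Pkm to Pklr ratio of NASH against control as 1.58 with an adjusted p of 0.234. The sign-flip test of 6 pairs could pass after adjustment over 9 ratio tests only if most of the 9 reached its smallest p. Its result therefore cannot decide whether pairing matters for the ratio. Hk2, at 19 to 290 counts per rat, has the largest counting error of the members.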
